A study of Homo sapiens with 6 samples.

Results

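The APOBEC3 family of cytidine deaminases was examined in BT-549 cells, an established human triple-negative breast cancer (TNBC) cell line, with and without silencing of the interferon (IFN) regulatory transcription factor IRF1. The members were the 7 genes APOBEC3A, APOBEC3B, APOBEC3C, APOBEC3D, APOBEC3F, APOBEC3G and APOBEC3H, chosen by symbol among the 37887 gene symbols counted. RNA-seq was performed on 3 control samples and 3 IRF1shRNA samples, with libraries made by a poly(A) kit that keeps strand. Control samples received 0.1% DMSO and IRF1shRNA samples received 500 ng/ml doxycycline. The titles give the controls a control shRNA, whereas the series text describes a single line with a doxycycline-inducible IRF1 shRNA given either agent. None of the controls received doxycycline, so what the drug does and what the shRNA does cannot be told apart. The labels say triplicate cultures and give no more on how they were kept apart, so the p-values measure the spread between these samples, which may be technical.

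APOBEC3 enzymes remove the amino group of cytosine in single-stranded DNA and leave uracil. They restrict retroviruses and transposable elements, partly by mutating their DNA, and in tumors some of them also deaminate the cell's own genome. Several of the genes are known to be induced by IFN, and they lie side by side on the long arm of chromosome 22, where the family arose by gene duplication.

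Each catalytic fold binds zinc through a histidine and a pair of cysteines, next to a glutamate that takes part in the reaction. In the principal transcripts of GENCODE release 29 (GRCh38), APOBEC3A, APOBEC3C and APOBEC3H encode 1 copy of this motif in 199, 190 and 183 codons, and APOBEC3B, APOBEC3D, APOBEC3F and APOBEC3G encode 2 copies in 382, 386, 373 and 384 codons. The coding segments that span the motif are shown because they show how closely the members resemble one another, which bears on how reads can be assigned to them. Copy 1 of APOBEC3D and copy 1 of APOBEC3G are not shown. All lie within a single exon on the plus strand, and capitals mark the codons for histidine, glutamate, proline and the cysteine pair.
APOBEC3A, chr22:38961420-38961530, and copy 2 of APOBEC3B, chr22:38991365-38991475: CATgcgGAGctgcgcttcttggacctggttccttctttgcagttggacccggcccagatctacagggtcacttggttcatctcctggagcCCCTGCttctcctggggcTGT
APOBEC3C, chr22:39017787-39017891: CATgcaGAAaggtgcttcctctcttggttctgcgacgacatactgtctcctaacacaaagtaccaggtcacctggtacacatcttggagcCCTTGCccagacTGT
Copy 2 of APOBEC3D, chr22:39031715-39031819, and of APOBEC3F, chr22:39052095-39052199: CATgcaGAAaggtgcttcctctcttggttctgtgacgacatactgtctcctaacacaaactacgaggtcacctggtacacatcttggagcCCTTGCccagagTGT
Copy 2 of APOBEC3G, chr22:39086312-39086416: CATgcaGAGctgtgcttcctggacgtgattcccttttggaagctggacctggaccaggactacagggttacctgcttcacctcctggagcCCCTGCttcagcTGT
APOBEC3H, chr22:39101246-39101350: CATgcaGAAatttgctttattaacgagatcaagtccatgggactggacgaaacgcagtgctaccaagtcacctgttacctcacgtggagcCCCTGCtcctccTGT
Copy 1 of APOBEC3B, chr22:38985833-38985937, and of APOBEC3F, chr22:39044962-39045066: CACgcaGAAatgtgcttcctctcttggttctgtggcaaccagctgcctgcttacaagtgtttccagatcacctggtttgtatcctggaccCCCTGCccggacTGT

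The APOBEC3A segment was identical to the second copy of APOBEC3B over 111 of 111 bases. The second copies of APOBEC3D and APOBEC3F were identical over 105 of 105 bases, and APOBEC3C matched them at 101 of 105 bases, or 96.2%. The first copies of APOBEC3B and APOBEC3F were identical as well. The second copy of APOBEC3G was closest to APOBEC3A, with 77.5% of aligned bases identical, whereas APOBEC3H reached at most 61.9% identity with any other copy. Across whole principal transcripts, 84.4% of the 100-base windows of APOBEC3D occurred exactly in a transcript of another gene, compared with 36.5% for APOBEC3B, 13.5% for APOBEC3F, 12.7% for APOBEC3A, 11.3% for APOBEC3G and 0% for APOBEC3C and APOBEC3H. Counts of APOBEC3D and APOBEC3B are therefore the least certain of the family by this measure, since the handling of reads that match several genes is not given in the sources used here.

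Total counts ranged from 55143808 to 160436234, with IRF1shRNA replicate 2 the shallowest library. A count of 3, taken as the limit of detection, stood for 0.0182 to 0.0540 CPM, where CPM are counts relative to the scaled library total, and such limits cover counting error only. Mates of a pair may have been counted separately, so a count of 3 may stand for fewer than 3 fragments. The mesenchymal markers VIM, FN1, SPARC and CDH2 had group means from 240.3 to 1374 CPM, and ESR1, PGR, EPCAM and CDH1 were below 1 CPM. ERBB2 averaged 50.8 CPM in control samples against 36.4 CPM after silencing. Leukocytes also express APOBEC3 genes. Among leukocyte markers, CD3D and MS4A1 had no count, CD3E had at most 1 count in a library, and LYZ averaged 0.0109 CPM in control and 0.0429 CPM in IRF1shRNA cells. PTPRC averaged 0.526 CPM in control samples and 0.481 CPM after silencing, and ITGAM averaged 0.178 and 0.190 CPM. CD14 rose from 1.09 to 2.22 CPM (adjusted p = 1.43e-05, edgeR quasi-likelihood test with Benjamini-Hochberg adjustment).

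IRF1 itself was examined first. Replicates 1 to 3 of the control stood at 45.3, 48.1 and 51.5 CPM, and those of IRF1shRNA at 13.8, 14.9 and 14.6 CPM. The groups did not overlap, and the silenced samples held 29.9% of the control mean (log2 fold change -1.74 ± 0.06 (SE, as for all log2 fold changes below), adjusted p = 4.53e-13, edgeR quasi-likelihood test). The level of IRF1 went with the label in all 6 libraries.

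Silencing IRF1 was associated with lower levels of APOBEC3A, APOBEC3B, APOBEC3C, APOBEC3F and APOBEC3G. Among the 7 members, 5 had enough counts to be tested and 5 were called lower, with 0 called higher. APOBEC3G passed the filter on low counts only through its control samples. Its place here and in the comparisons below therefore depends on its decrease. Of the 18851 genes tested, 26.4% were called lower and 24.1% higher at an adjusted p under 0.05. Each of the 5 had control and IRF1shRNA samples that did not overlap, a pattern with lower values in IRF1shRNA that 29.5% of all genes tested showed. The fitted decrease exceeded 2-fold for each of the 5, although for APOBEC3B it ranged from -0.95 to -1.02 on the log2 scale across 15 other settings, whereas 4.43% of all genes tested were called lower by more than 2-fold. APOBEC3D and APOBEC3H had too few counts for a test. In RNA from whole cultures, fewer cells expressing a gene and less RNA per cell cannot be told apart.

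**Figure D1:**
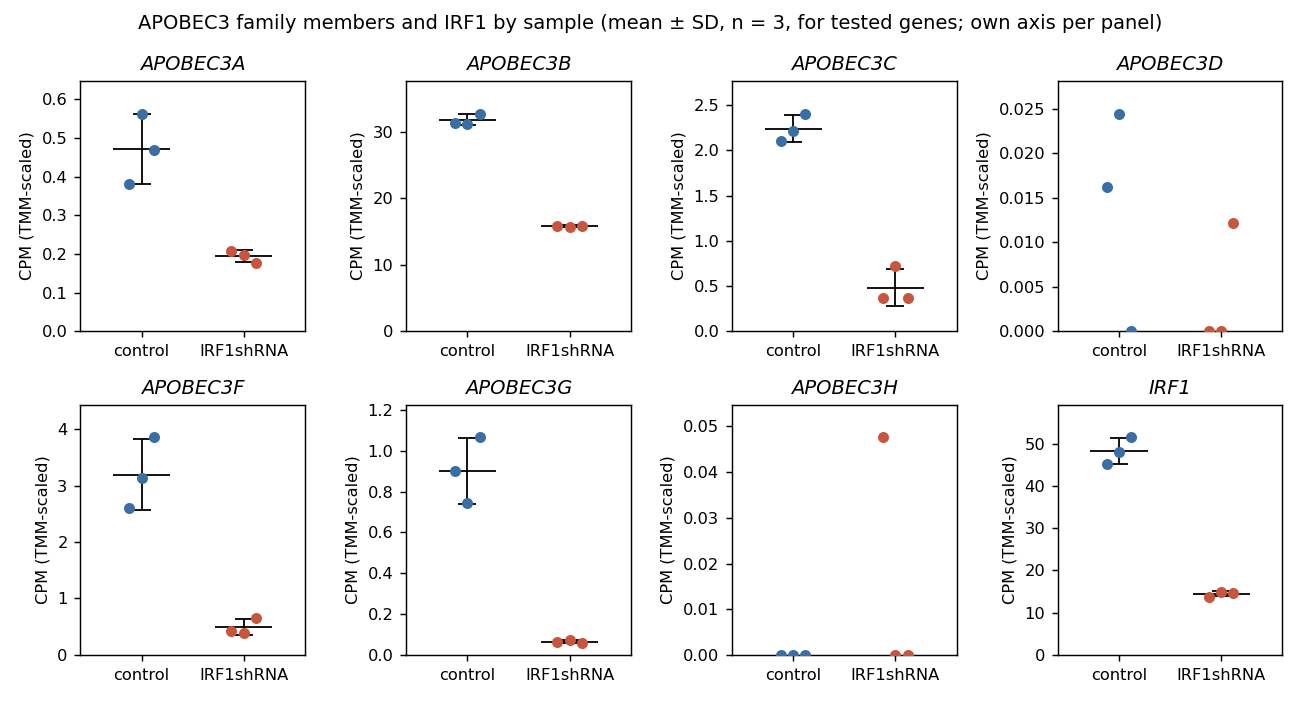
Level of each APOBEC3 gene and of IRF1 in TMM-scaled CPM (vertical axis, linear and starting at 0, with its own range per panel) for 3 control (blue) and 3 IRF1shRNA samples (red). Points are samples, and black lines give the mean ± SD for tested genes. The groups are apart for IRF1 and the 5 tested members, while APOBEC3D and APOBEC3H lie at or near the limit of detection.

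APOBEC3B encodes a nuclear enzyme with both motif copies, known as a source of mutations in breast and other tumors. It was the most abundant member, also per transcript length. The control samples, replicates 1 to 3, held 31.4, 31.2 and 32.7 CPM, and the silenced samples held 15.9, 15.7 and 15.9 CPM. The groups were apart and the samples of each group lay close together, with 31.8 ± 0.820 CPM (SD, n = 3) in control and 15.8 ± 0.0928 CPM (n = 3) in IRF1shRNA cells. The silenced samples kept 49.8% of the control level, with a log2 fold change of -1.01 ± 0.06 (SE) and an adjusted p of 1.90e-10 (edgeR quasi-likelihood test). This was the smallest decrease among the tested members, and it ranked 889 from the lowest of the 18851 log2 fold changes.

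APOBEC3G encodes a cytoplasmic enzyme known for being packaged into virions of HIV that lack Vif. It had the largest fold decrease of the family. The control samples, replicates 1 to 3, had 111, 91 and 159 counts and the silenced samples had 8, 4 and 10 counts, or 0.901, 0.743 and 1.07 CPM against 0.0635, 0.0721 and 0.0607 CPM. Every silenced sample was below every control sample, and the silenced samples were only a few counts above the limit of detection. The mean fell from 0.903 ± 0.162 to 0.0654 ± 0.00590 CPM, 7.25% of control (log2 fold change -3.81 ± 0.31, adjusted p = 1.79e-08, edgeR quasi-likelihood test). The SD of the silenced samples rests on 4 to 10 counts each and may understate the counting error, here and for this gene below. APOBEC3G passed the filter on low counts through its control samples. By fitted log2 fold change it ranked 26 from the lowest of 18851.

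APOBEC3F, a double-motif enzyme that also restricts HIV lacking Vif, was the second most abundant member in control cells, also per transcript length. Over replicates 1 to 3 it measured 2.60, 3.13 and 3.86 CPM in control cells, compared with 0.429, 0.396 and 0.650 CPM after silencing. Every silenced sample was far below the lowest control sample. The mean fell from 3.20 ± 0.628 to 0.492 ± 0.138 CPM, 15.4% of control (log2 fold change -2.64 ± 0.19, adjusted p = 3.74e-09, edgeR quasi-likelihood test).

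APOBEC3C, a single-motif enzyme, measured 2.10, 2.22 and 2.41 CPM over replicates 1 to 3 of the control, compared with 0.365, 0.721 and 0.365 CPM after silencing. IRF1shRNA replicate 2, the shallowest library, was the highest silenced sample, with 40 counts, and was still below every control. The mean fell from 2.24 ± 0.154 to 0.483 ± 0.205 CPM, 21.6% of control (log2 fold change -2.34 ± 0.21, adjusted p = 4.84e-08, edgeR quasi-likelihood test). APOBEC3C was also the tested member with no window shared with another gene.

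APOBEC3A, a potent single-motif deaminase that IFN is known to induce in monocytes, was scarce. Over replicates 1 to 3 it had 47, 69 and 70 counts in control cells and 26, 11 and 29 counts after silencing, or 0.381, 0.563 and 0.469 CPM against 0.206, 0.198 and 0.176 CPM. The groups did not overlap, and control replicate 1 was the nearest control to the silenced samples. The mean fell from 0.471 ± 0.0909 to 0.194 ± 0.0156 CPM, 41.1% of control (log2 fold change -1.29 ± 0.30, adjusted p = 0.00172, edgeR quasi-likelihood test). In GENCODE release 29 an APOBEC3A transcript of 1103 bases, other than the principal one, shares 348 exonic bases with APOBEC3B, which are 14.8% of the exonic bases of APOBEC3A and 18.4% of those of APOBEC3B. APOBEC3B had 3827 to 4878 counts in control samples, and the part of its reads in the APOBEC3A counts was not tested.

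APOBEC3D, a double-motif enzyme, had 2, 3 and 0 counts over control samples (replicates 1 to 3) and 0, 0 and 2 counts over silenced samples. It reached 3 counts in 1 of 6 libraries. The read-through gene AL022318.4 covers 83.2% of its exonic bases in GENCODE release 29 and was not among the counted symbols. APOBEC3H, a single-motif enzyme that also acts on retroviruses, had 0 counts in every control sample and 6, 0 and 0 counts over silenced replicates 1 to 3, so it was detected in 1 of 6 libraries. Neither gene could be tested for a difference between the groups. Among the other symbols of the locus, the pseudogene APOBEC3AP1 had 2 counts in 1 library and the antisense gene APOBEC3B-AS1 had 1 count in 1 library. APOBEC3B-AS1 overlaps 12.9% of the exonic bases of APOBEC3B, and whether strand was used in counting is not given in the sources used here.

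To compare levels between members, CPM were divided by the length of the principal transcript to give RPKM, the CPM per kilobase of transcript. In control cells the order was APOBEC3B at 20.7 ± 0.537 RPKM, APOBEC3F at 1.19 ± 0.233, APOBEC3C at 0.796 ± 0.0548, APOBEC3G at 0.492 ± 0.0882 and APOBEC3A at 0.319 ± 0.0615 (SD, n = 3). Neighbours in this order did not overlap in their control samples. In IRF1shRNA cells APOBEC3B remained highest at 10.3 ± 0.0592 RPKM. APOBEC3F at 0.183 ± 0.0513, APOBEC3C at 0.172 ± 0.0729 and APOBEC3A at 0.131 ± 0.0105 RPKM followed, and APOBEC3C overlapped both of the others. APOBEC3G was lowest of the tested members at 0.0357 ± 0.00322 RPKM, below every APOBEC3A sample. APOBEC3G was thus above APOBEC3A in every control sample and below it in every silenced sample. This change of order rests on 8, 4 and 10 counts of APOBEC3G after silencing. The part of APOBEC3B reads in the APOBEC3A counts was not tested.

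The pool of APOBEC3 counts was smaller in IRF1shRNA cells, and APOBEC3B took up more of it. The summed counts of the 7 members came to 37.4, 37.9 and 40.5 CPM over replicates 1 to 3 of the control, compared with 17.0, 17.1 and 17.1 CPM after silencing. The silenced samples thus held 44.2% of the control mean, a description without a test. APOBEC3B took 83.9%, 82.4% and 80.8% of the family counts in control samples and 93.5%, 91.9% and 92.6% in IRF1shRNA samples. The share was 8.25% ± 1.27 in control and 2.88% ± 0.798 in IRF1shRNA cells for APOBEC3F, 5.81% ± 0.165 and 2.83% ± 1.20 for APOBEC3C, and 2.33% ± 0.343 and 0.383% ± 0.0345 for APOBEC3G (SD, n = 3). For these 4 shares the groups did not overlap, with p = 0.1 in a two-sided exact permutation test, the smallest value that 3 samples against 3 allow. The share of APOBEC3A was 1.22% ± 0.239 in control and 1.13% ± 0.0966 in IRF1shRNA cells (exact permutation p = 0.9).

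**Figure D2:**
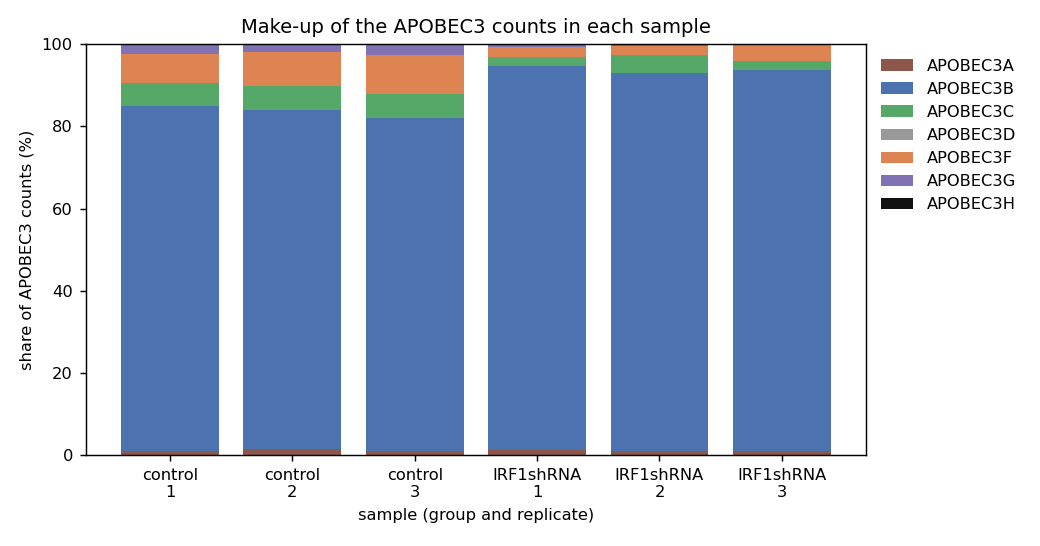
Share of the summed APOBEC3 counts taken by each member (vertical axis, percent) in each of the 6 samples (horizontal axis). APOBEC3B fills 80.8% to 83.9% of the control bars and 91.9% to 93.5% of the IRF1shRNA bars, and APOBEC3C, APOBEC3F and APOBEC3G are narrower in the latter.

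Whether members differed in the size of their decrease was addressed with the log2 ratio of their counts in each sample, over 10 pairs. In 8 of the 10 pairs the ratios of the groups did not overlap, with an exact permutation p of 0.1 and a Benjamini-Hochberg value of 0.125, and no pair could reach 0.05 in this design. The ratio of APOBEC3B to APOBEC3G differed most, at 5.15 ± 0.23 in control and 7.81 ± 0.19 in IRF1shRNA cells on the log2 scale. The ratio of APOBEC3F to APOBEC3G was 1.82 ± 0.27 and 2.79 ± 0.53, and that of APOBEC3B to APOBEC3C was 3.82 ± 0.07 and 5.10 ± 0.58. The overlapping pairs were APOBEC3A with APOBEC3B, whose ratio differed by -0.24 (exact permutation p = 0.3), and APOBEC3C with APOBEC3F, whose ratio differed by 0.42 (exact permutation p = 0.6).

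The members were next set in their chromosomal order, on the plus strand from APOBEC3A at chr22:38952741-38992778 to APOBEC3H at chr22:39097224-39104067 (GENCODE release 29, GRCh38). The tested members had log2 fold changes of -1.29, -1.01, -2.34, -2.64 and -3.81 from APOBEC3A to APOBEC3G. Of the 10 nearest counted genes, 5 on each side, 8 were tested. Of these, 2 were called lower and 3 higher, with a median log2 fold change of 0.02. Over all genes tested, 26.4% were called lower and 24.1% higher. The share of neighbours called lower was near the former, so that count is no result about them. The share called higher was above the latter, a difference that was not tested. On the APOBEC3A side, CBX6, which encodes a Polycomb protein, fell (log2 fold change -0.53 ± 0.05), and NPTXR, a neuronal pentraxin receptor gene, rose (0.93 ± 0.06). DNAL4 (-0.13 ± 0.08), SUN2 (0.11 ± 0.06) and the pseudogene PRDX3P1 (-0.08 ± 0.28) did not pass the test. On the APOBEC3H side, CBX7, another Polycomb gene, rose (0.95 ± 0.06), the growth factor gene PDGFB fell (-0.93 ± 0.15) and the ribosomal protein gene RPL3 rose (0.27 ± 0.05). The pseudogenes COX5BP7 and FUNDC2P4 had at most 2 counts in a library. With scaling by library size only or by the upper quartile, 4 neighbours were called higher.

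**Figure D3:**
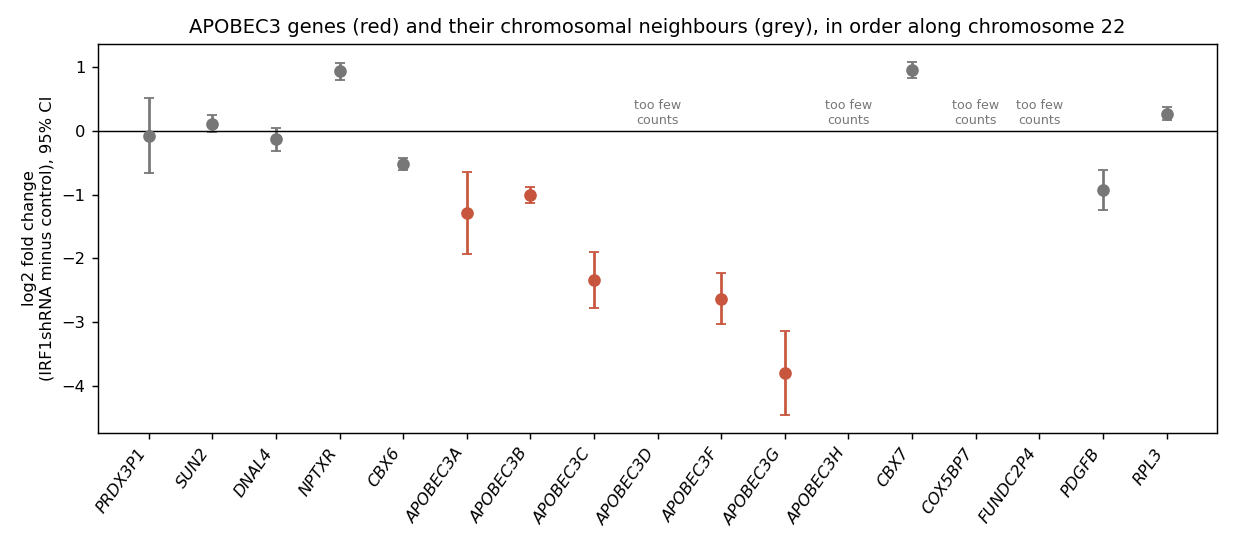
Log2 fold change with its 95% confidence interval (vertical axis, IRF1shRNA minus control) for the APOBEC3 genes (red) and 5 counted genes on each side (grey), in order along chromosome 22. The 5 tested APOBEC3 genes all lie below 0, from -1.01 to -3.81, while the nearest tested genes on both sides are CBX6 at -0.53 and CBX7 at 0.95.

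Genes whose profile over the 6 samples was most like that of a member were found by the root mean square distance between centred log2 CPM values, with no test. A prior count of 2, scaled to library size, was added first, which shrinks the differences of scarce genes. The groups differed in every tested member, so the size of the decrease is a large part of the likeness. For APOBEC3G the nearest were GBP1 at 0.18, IFIH1 (MDA5) at 0.19 and UBE2L6 at 0.19 log2 units, which are known IFN-induced genes. Their fitted log2 fold changes were -3.26, -3.47 and -3.24, compared with -3.81 for APOBEC3G. For APOBEC3F they included the noncoding RNA gene BISPR at 0.12 and the chemokine gene CCL5 at 0.13. For APOBEC3C they were IL22RA1 at 0.22, CCDC33 at 0.25 and KCNK3 at 0.26, and for APOBEC3A they were QRFPR at 0.08, CXCL16 at 0.10 and DLL1 at 0.10. For APOBEC3B the nearest were NIPSNAP3A at 0.02, MTMR14 at 0.02 and DNAJC5 at 0.03.

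The transcription factors known to induce the family were measured in the same fit. Counts in these lists are to be read beside the 26.4% of all genes tested that were called lower and the 24.1% called higher. Of the 4 genes in the IFN arm other than IRF1, the silenced gene, 4 fell, with a median log2 fold change of -1.32. STAT2, a subunit of the factor that type I IFN activates, fell by 1.01 on the log2 scale. Among 5 genes of the NF-kappaB arm, which is known to raise APOBEC3B, 1 fell and 3 rose, with a median of 0.11 and small values for RELA (-0.21), REL (0.26) and NFKB1 (0.17). Cell cycle regulators that act on APOBEC3B were mixed: of 9 genes 5 fell and 2 rose, among them MYBL2 (-1.04 ± 0.04), FOXM1 (-0.33) and RBL2 (0.37). That split became 3 and 3 when scaled by library size only or by the upper quartile. Of 8 proliferation markers 5 fell and 0 rose, led by CDK1 (-0.71), PLK1 (-0.59) and PCNA (-0.58), with a median of -0.21, and the part of proliferation in the level of APOBEC3B was not tested. With those 2 scalings, 2 and 1 proliferation markers were called higher. The median over all genes tested was -0.0024.

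Other restriction factors, which block retroviruses at other steps, mostly fell as well. Of 17 genes tested, 15 fell and 2 rose, with a median log2 fold change of -0.80, where 26.4% of all genes tested were called lower and 24.1% higher. BST2 (tetherin, which holds budding virions at the cell surface) fell by 5.22, IFITM1 (which hinders virus entry) by 3.78 and HERC5 (the ligase for ISG15) by 2.11 on the log2 scale. SERINC3 (0.42) and KHNYN (0.41), a cofactor of the antiviral protein ZAP, rose.

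The genes that process uracil after deamination did not share one direction. Of 24 genes of uracil repair and tolerance, 7 fell and 9 rose, with a median log2 fold change of 0.04. The share that fell was near the 26.4% of all genes tested, so that count is no result about the list. The share that rose was above the 24.1% of all genes tested, a difference that was not tested. With scaling by library size only or by the upper quartile, 5 fell and 10 rose. RAD18, a ligase in lesion bypass, fell by 0.60, whereas the thymine DNA glycosylase gene TDG rose by 0.43 and the ligase gene LIG3 rose by 0.44. UNG, the main uracil glycosylase, went from 58.4 to 48.1 CPM (log2 fold change -0.28, adjusted p = 2.64e-05, edgeR quasi-likelihood test).

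Among the relatives and cofactors of the family, 5 of 8 genes were tested, of which 2 fell and 1 rose. Over all genes tested, 26.4% were called lower and 24.1% higher. With so few genes, these counts are no result about the list. APOBEC1, the editor of APOB mRNA, had at most 2 counts, and A1CF, its cofactor, averaged 0.0460 CPM in control and 0.0981 CPM in IRF1shRNA cells and was not tested. APOBEC2 (0.16 ± 0.30) and APOBEC4 (0.25 ± 0.43) did not pass the test. RBM47, another editing cofactor, rose (log2 fold change 0.67 ± 0.09), and the RNA-binding protein genes SYNCRIP (-0.32) and HNRNPAB (-0.31) fell.

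**Figure D4:**
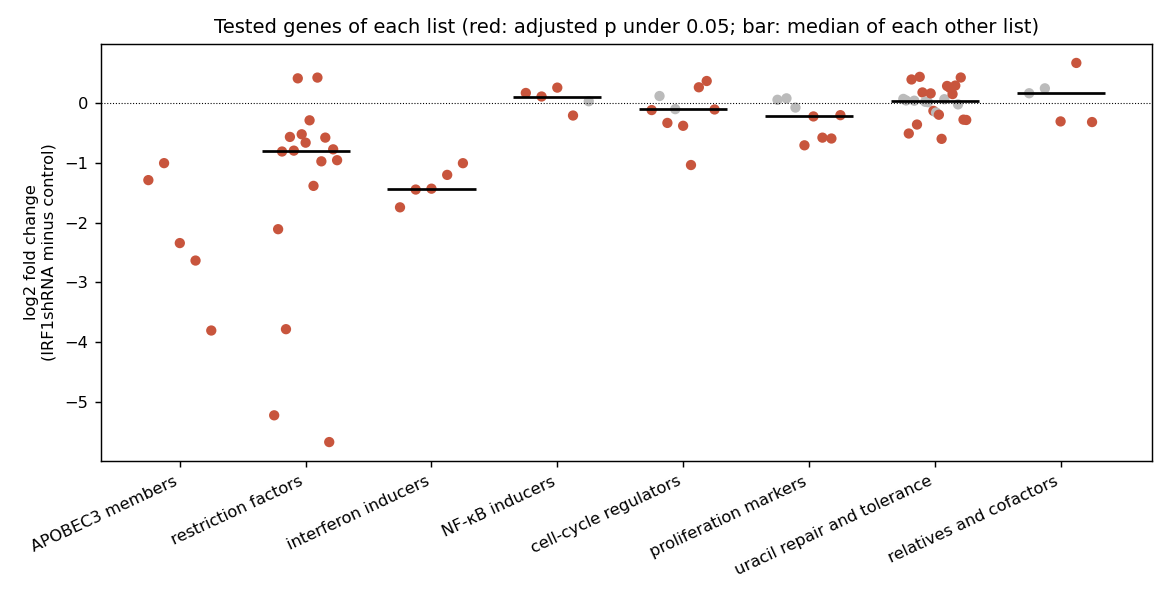
Log2 fold change (vertical axis, IRF1shRNA minus control) of each tested gene in the lists named on the horizontal axis. Red points have an adjusted p under 0.05 and bars are medians of the lists other than the members. The tested members lie between -1.01 and -3.81. Restriction factors and IFN inducers (IRF1 included) have medians of -0.80 and -1.43. The other medians lie between -0.21 (proliferation markers) and 0.16 (relatives and cofactors).

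Promoter sequence from RefSeq (GRCh38.p14) was at hand for 1 of the 7 members, APOBEC3H. A search of both strands of its 300 bases found no core of the IFN-stimulated response element (GAAA, any pair of bases, GAAA). It also found no gamma-activated site (TTC, any 3 bases, GAA). Of 35116 promoters of that length, 3.57% held the former and 7.66% the latter. The search of APOBEC3H matched capital letters only, whereas that of all promoters ignored case, so any lower-case stretch of APOBEC3H was not searched.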

How the data were processed

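RNA-seq was performed on 3 control and 3 IRF1shRNA samples of BT-549 cells. The deposited values were raw, whole-number counts for each gene symbol, which the authors had not normalized. Per the submitters' processing notes, CASAVA 1.8.2, STAR 2.7.9a, featureCounts, DESeq2 1.24.0 and the build GRCh38.p7 were used, whereas the annotation release, the use of strand and the handling of read mates are not given in the sources used here. Between 72.1% and 75.2% of values from 2 to 11 were even, so mates of a pair may have been counted separately, and halved counts were tried.

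Counts were tested with edgeR 4.0.16 (R 4.3.3; quasi-likelihood, TMM scaling, filterByExpr with a minimum count of 10, group as the single factor) and Benjamini-Hochberg adjustment over 18851 genes, with a call at adjusted p under 0.05. CPM are TMM-scaled, and the SE is the log2 fold change divided by the square root of F. Exact permutation tests used scipy 1.17.1, and ratios of counts had 0.5 added. The code was tested on simulated data. Sequences, exons and lengths came from GENCODE release 29. Replicates of a group differed by more than sampling noise. The chi-square over its degrees of freedom was 5.69 to 13.9, computed on halved counts. It covered genes with a halved sum of at least 10 in the pair of samples.

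The members and lists were chosen with earlier results of these data known. Named genes were IRF1, the members, other symbols starting with APOBEC3, the 3 genes with the smallest adjusted p in each list, all relatives and neighbours, and the 3 nearest profiles for each tested member. Some genes that this rule or the marker lists cover are not reported here. UNG, SERINC3, KHNYN and the cell type markers were named beside these. Alternatives were DESeq2 1.42.0, other scalings and filters, leaving out each replicate, a replicate block, halved counts, libraries thinned to the smallest total and a threshold of 0.01.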

Additional observations from a re-analysis of the deposited data

How the results depend on the processing

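The 5 tested members and IRF1 kept their direction and stayed past an adjusted p of 0.05 under every alternative in which they were tested. The log2 fold change ranged from -1.42 to -1.14 for APOBEC3A (adjusted p 0.000270 to 0.0143 over 14 alternatives with edgeR or DESeq2), -1.02 to -0.95 for APOBEC3B, -2.61 to -2.17 for APOBEC3C, -2.94 to -2.48 for APOBEC3F and -3.92 to -3.59 for APOBEC3G. With a filter of at least 1 CPM in 3 samples, 3 members were called lower instead of 5, because APOBEC3A and APOBEC3G were left out of the test. Leaving out 1 library at a time gave 5 to 5 members lower, 0 to 0 higher and a family total of 43.5% to 45.4% of control. Scaling by library size only or by the upper quartile changed the cell cycle regulators called lower from 5 to 3 and the proliferation markers called higher from 0 to 2 and 1. Per kilobase of transcript, the gain in share was 6.92 points for APOBEC3B instead of 10.3, and the loss for APOBEC3F was -3.35 points instead of -5.37. The difference in the APOBEC3A share, -0.0872 points, turned to 0.0447 points without control replicate 2, and spanned -0.188 to 0.0447 points over the left-out libraries.

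The replicate numbers gave no clear sign of pairing in this check of 3 samples against 3. Same-numbered samples had correlations of 0.0137, 0.0250 and -0.0072 between their deviations from the group means. Replicate 2 correlated best with its own number in both groups, whereas not every other sample did. A fit with the replicate block gave log2 fold changes of -1.25, -1.01, -2.33, -2.67 and -3.85 from APOBEC3A to APOBEC3G, and no call changed. For APOBEC3D and APOBEC3H only detection can be stated. Reads shared between APOBEC3A, APOBEC3B, APOBEC3D, APOBEC3F and APOBEC3G could not be separated with counts per symbol. APOBEC3F and APOBEC3G had 196 of the 100-base windows in common.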
